A study of Mus musculus with 12 samples.

Results

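The genes described here encode parts of the spliceosome and RNA-binding proteins that steer splicing. They were chosen by name, as every gene name in either deposited clique table that begins with Srsf, Snrp, Hnrnp, Sf3a, Sf3b, Prpf, U2af or Rbm, pseudogene names with -ps left out. This gave 85 of the 16197 names listed at either age. Of these, 83 are protein-coding in RefSeq, and the others are the noncoding RNA Rbm3os and the pseudogene Snrpert. The prefix Rbm is broad, and some of its 27 members act on RNA in ways other than splicing.

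The study mapped contacts between chromatin regions carrying H3K27ac, the histone acetylation found at working promoters and enhancers, by Hi-ChIP in hepatocytes from collagenase-digested livers. Young animals were male C57BL/6 mice of 5 months and old animals were male C57BL/6 mice of 25 months, with no other treatment, and each age had 6 libraries, made of 2 biological replicates in 3 batches of technical repeats. The authors deposited 1 network per age, whose nodes are 5 kb bins and whose cliques are sets of nodes. Fewer cells with a contact and a weaker contact in each cell cannot be told apart in such bulk material. No spread between animals can be computed from 1 network per age, so no p-value is given and each value describes that network.

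The value of a gene is the number of nodes in the largest clique that lists it, with 0 for a gene listed in none. Old was set against young as log2((old + 1)/(young + 1)). The young network held 56928 nodes and the old 40304, and the number of contacts behind each is unknown. Among the 9836 names with an entry for each age the median was 31 nodes for young and 17 for old. Because most names have the smaller clique in old, a second value was taken with old sizes multiplied by the ratio of these medians, 1.82, which moves the median log2 value of these names from -0.63 to 0.20. Of 6 hepatocyte markers, 5 were listed in young and 4 in old, Hnf4a being listed in young only and Serpina1a at neither age. Of 25 markers of 5 other liver cell types, 4 were listed in young (Lyve1, Spp1, Pecam1 and Reln, in cliques of 25, 11, 4 and 2 nodes) and 1 in old (Lyve1, in a clique of 3 nodes). The part of other cells in the values below was not tested.

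Splicing removes introns from precursor RNA in 2 steps carried out by the spliceosome. Small nuclear ribonucleoproteins mostly hold a small RNA in a ring of Sm proteins. They recognise the ends of the intron together with the U2AF dimer and the SF3A and SF3B complexes. PRPF proteins build and activate the catalytic core. SR proteins, encoded by Srsf genes, mostly favour the use of nearby exons, and hnRNP proteins often oppose them, so their balance sets alternative splicing. Hepatocytes express these genes broadly, as most cells do.

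Most splicing genes had a smaller clique in old hepatocytes, as did most gene names. Of the 85 genes, 62 had an entry for each age, 17 for young alone and 6 for old alone. Both ages listed 72.9% of the splicing genes, beside 60.7% of all names. The share listed only in old was 7.06%, beside 10.3%, and 29.0% of all names were listed only in young. Of the 62 genes listed at both ages, 55 had the smaller clique in old, 5 the larger and 2 an equal one. That is 88.7% smaller and 8.06% larger, beside 82.5% and 12.5% of all names, of which 4.98% were equal. With old sizes scaled by 1.82, 30 were smaller and 32 larger (48.4% and 51.6%), compared with 40.8% and 59.2% of all names.

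The 62 splicing genes had medians of 36.5 nodes in young and 16.5 in old. Their median log2 value was -0.81 (95% exact binomial interval of the median -1.15 to -0.53), beside -0.63 for all names, and the interquartile range ran from -1.40 to -0.22. An old clique at least 2-fold smaller on this scale was found for 26 of the 62 (41.9%), where 34.9% of all names had one. A clique at least 2-fold larger was found for 1, Hnrnpa2b1 (1.61%), against 3.52% of all names. With old sizes scaled these counts were 9 (14.5%) and 5 (8.06%), beside 16.8% and 9.64% of all names. These shares are near the background. The interval covers counting error only, and genes in the same clique share a value.

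**Figure D1:**
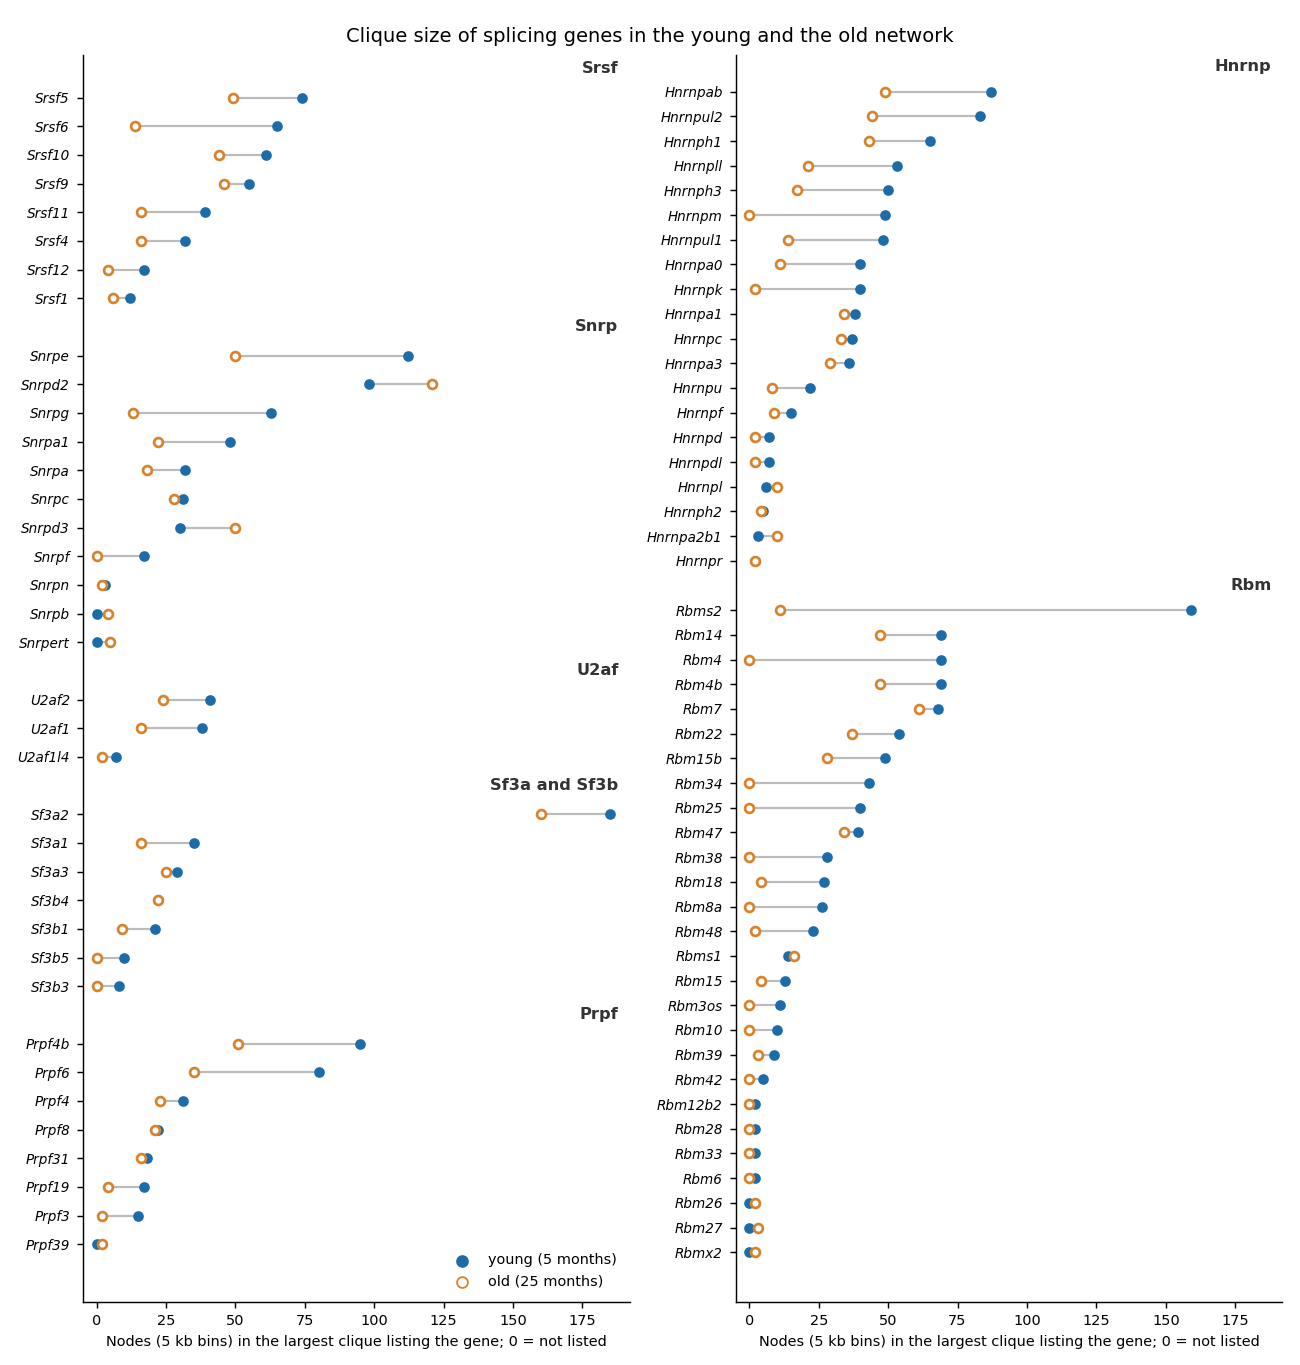
Nodes in the largest clique that lists each of 84 splicing genes, by name family, in the young network (filled blue) and the old network (open orange), with 0 for a gene not listed. Orange points lie left of blue for 71 genes and right of blue for 11, and the Rbm panel holds 12 genes at 0 in old.

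**Figure D2:**
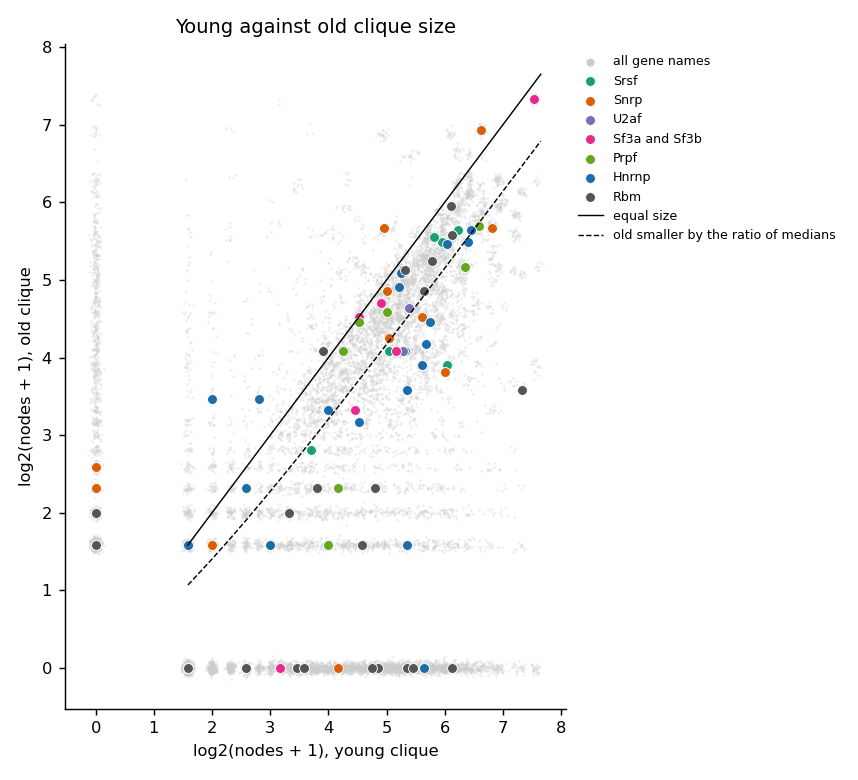
Young against old clique size on log2(nodes + 1) axes for all 16197 gene names (grey, jittered) and for splicing genes coloured by family. The solid line marks equal size and the dashed line an old clique smaller by 1.82. Genes of each family lie within the grey cloud, most of them below the solid line.

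**Figure D3:**
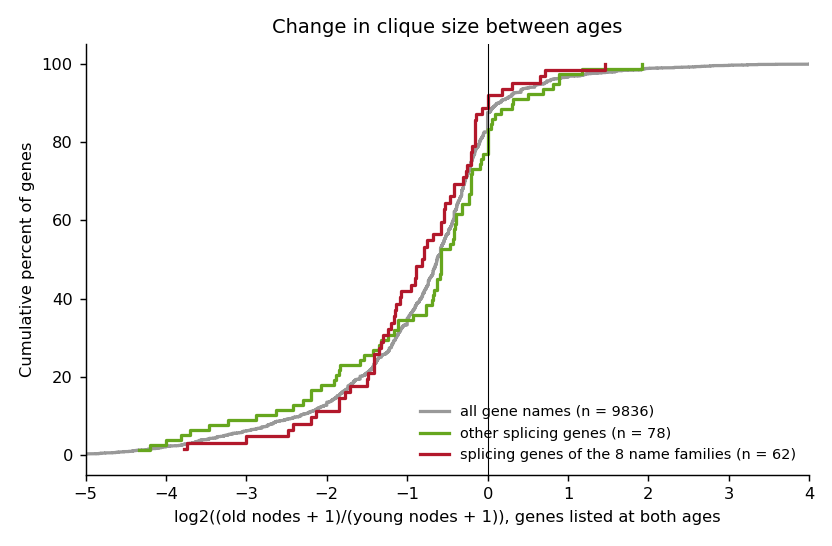
Cumulative percent of genes against the log2 value of clique size, old over young with 1 node added, for names listed at both ages. The curve of the 62 splicing genes lies near that of the 9836 names, with 55 genes left of 0, and that of 78 other splicing genes lies near both.

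The Sm proteins form the ring around most spliceosomal RNAs, and their genes differed widely among themselves. Snrpe (chromosome 1, 133603871 to 133610280) had a clique of 112 nodes in young and of 50 in old. Of its 112 young bins 79 were still network nodes in old, spread over 7 cliques. Snrpg was in cliques of 63 and 13 nodes, a log2 value of -2.19, the lowest of the Snrp genes listed at both ages. It stayed below 0 with old sizes scaled, at -1.37.

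Snrpd2 and Snrpd3 went the other way. Snrpd2 (chromosome 7, 19149445 to 19152734) had 98 nodes in young and 121 in old, and 83 bins belonged to both. These cliques also listed the apolipoprotein gene Apoe and Gemin7, which helps load Sm rings. Snrpd3 (chromosome 10, 75518042 to 75535440) was in cliques of 30 and 50 nodes. Counted from its start site, the young clique reached from -235.5 to 29.5 kb and the old one from -235.5 to 434.5 kb. In old it was listed with the glutathione transferase genes Gstt1, Gstt2 and Gstt3 and with Mif, none of which was listed with it in young.

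Snrpf shows how a gene can leave the table while its surroundings stay. Its young clique had 17 nodes and listed it together with Hal and Amdhd1, both genes of histidine breakdown, and was listed in no old clique. Of the 17 bins 14 were nodes of a single old clique, but the bin that holds its start site was not. Snrpb, another Sm gene, was listed in old only, in a clique of 4 nodes. Its near relative Snrpn, an imprinted gene best known from neurons, was in cliques of 3 and 2 nodes.

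Promoters of 3 Sm genes with these different courses are shown from RefSeq on GRCm38.p6, each from 250 bases before to 50 after the start site, on the strand of the gene. Capitals mark matches to the motifs searched, which are described below. Snrpe (chr1:133610231-133610530, minus strand) had the smaller clique in old and a start bin that was a node at both ages. Snrpd3 (chr10:75517792-75518091, plus strand) had the larger clique in old. The start bin of Snrpf (chr10:93589609-93589908, minus strand) was a node in young only, and its promoter holds no match.
Snrpe: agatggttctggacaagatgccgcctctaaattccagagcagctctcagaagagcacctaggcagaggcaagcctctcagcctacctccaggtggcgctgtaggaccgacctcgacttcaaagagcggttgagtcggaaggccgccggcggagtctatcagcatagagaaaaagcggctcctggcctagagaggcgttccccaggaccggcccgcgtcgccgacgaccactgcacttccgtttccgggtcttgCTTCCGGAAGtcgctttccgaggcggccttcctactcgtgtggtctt
Snrpd3: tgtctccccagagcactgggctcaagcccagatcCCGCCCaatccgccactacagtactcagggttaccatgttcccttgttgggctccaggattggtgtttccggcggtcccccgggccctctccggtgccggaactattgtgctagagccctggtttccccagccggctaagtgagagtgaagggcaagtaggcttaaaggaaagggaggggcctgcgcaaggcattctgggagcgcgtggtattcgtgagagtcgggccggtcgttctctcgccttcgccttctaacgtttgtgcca
Snrpf: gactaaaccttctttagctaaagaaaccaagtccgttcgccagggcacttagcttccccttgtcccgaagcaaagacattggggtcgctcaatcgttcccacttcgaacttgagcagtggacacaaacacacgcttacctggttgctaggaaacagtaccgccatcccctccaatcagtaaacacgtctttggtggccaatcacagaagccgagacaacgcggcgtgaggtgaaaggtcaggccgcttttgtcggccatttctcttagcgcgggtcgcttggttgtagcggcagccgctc

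Snrpc, Snrpa and Snrpa1, whose products are specific to 1 particle, had smaller old cliques as listed. With old sizes scaled they were at 0.70, 0.04 and -0.25, beside a median of 0.20 over all names listed at both ages. Snrpc, whose product helps the U1 particle read the 5′ splice site, was in cliques of 31 and 28 nodes, with 23 bins in common, but its start bin was a node of another young clique, of 18 nodes, and no old node. Snrpa, a U1 protein gene, was in cliques of 32 and 18 nodes. Snrpa1, which encodes a U2 particle protein, was in cliques of 48 and 22 nodes, and 18 of its 48 young bins were old nodes. Of the 11 Snrp names in all, 7 were smaller in old and 4 larger, but with old sizes scaled 4 were smaller and 7 larger. Over all names, 79.1% were smaller as listed and 53.8% with old sizes scaled.

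The genes that define the 3′ end of the intron had smaller or equal old cliques, as did most gene names. U2af2, whose product binds the polypyrimidine tract, was in cliques of 41 and 24 nodes. U2af1, whose product reads the AG at the end of the intron, was in cliques of 38 and 16. The related U2af1l4 was in cliques of 7 and 2. All 3 were smaller in old, while with old sizes scaled U2af2 was at 0.09, beside a median of 0.20 over all names listed at both ages. Of those names, 82.5% were smaller as listed and 40.8% with old sizes scaled.

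Among the SF3A and SF3B genes, whose products hold the branch point, Sf3a2 stood out by size. It was listed in the second largest young clique and the largest old clique, of 185 and 160 nodes, spanning 1370 kb and 1375 kb on chromosome 10. Of the 185 young bins 120 were in the old clique that lists it. Both cliques also listed Ptbp1, which encodes the polypyrimidine tract-binding repressor of exons, Lsm7, a gene of the U6 ring, and Cirbp, a cold-induced RNA-binding protein gene.

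The other SF3 genes were in far smaller cliques. Sf3a1 was in cliques of 35 and 16 nodes and Sf3a3 in cliques of 29 and 25. Sf3b1, whose product touches the branch point, was in cliques of 21 and 9 nodes. Sf3b4 was in cliques of 22 nodes at both ages, yet only 8 bins were common to them. Equal size there did not mean the same bins.

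Sf3b3 and Sf3b5, with young cliques of 8 and 10 nodes, were listed in no old clique and had no old node in or within 2500 bp of the gene. Of the 7 genes, 6 had the smaller value in old as listed and 4 with old sizes scaled, beside 79.1% and 53.8% of all names.

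The PRPF genes ran from nearly constant to sharply smaller. Prpf8 (chromosome 11, 75486777 to 75509447) encodes the scaffold of the catalytic core and was in cliques of 22 and 21 nodes. Of its 22 young bins 21 were old nodes, the highest share of the PRPF genes, and the same 11 names were listed with both cliques, Serpinf1 and Serpinf2 among them. Prpf31, a gene of the U4/U6 particle, was in cliques of 18 and 16 nodes. Prpf4, which belongs to the same particle, was in cliques of 31 and 23.

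Prpf3 and Prpf19 were at the other end. Prpf3, also of the U4/U6 particle, had 15 nodes in young and 2 in old. Of its 15 young bins 12 were old nodes, 10 of them in a single clique that does not list it. Prpf19, the ubiquitin ligase of the complex that activates the spliceosome, was in cliques of 17 and 4 nodes, and 6 of 17 bins were kept. Both remained below 0 with old sizes scaled, at -1.78 and -1.12.

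The largest PRPF cliques were those of Prpf4b, a kinase gene, with 95 and 51 nodes, and Prpf6, whose product bridges the tri-snRNP, with 80 and 35. Prpf39 was listed in old only, in a clique of 2 nodes. By gene span Prpf39 had a young clique of 18 nodes and an old one of 11, so its direction turned. Of 9 PRPF genes, 8 had the smaller value in old as listed and 5 with old sizes scaled, beside 79.1% and 53.8% of all names.

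All 8 SR protein genes in the tables had entries at both ages, each with fewer nodes in old. With old sizes scaled, 5 were smaller and 3 larger. Of all names listed at both ages, 82.5% were smaller as listed and 40.8% with old sizes scaled. Srsf5 had the largest clique, with 74 nodes in young and 49 in old, and was listed with Slc10a1, the gene of the main bile acid uptake carrier of hepatocytes. Srsf9 was in cliques of 55 and 46 nodes with 38 bins in common. Srsf10, whose product can act as a repressor of splicing, was in cliques of 61 and 44 nodes. These 3 genes had log2 values from -0.58 to -0.25 and are the ones above 0 with old sizes scaled.

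Srsf6 (chromosome 2, 162931508 to 162937121) had the lowest value of the family, with 65 nodes in young and 14 in old, a log2 value of -2.14. It remained at -1.31 with old sizes scaled. Its young clique also listed Hnf4a, a central hepatocyte factor, and reached 791.0 kb downstream of the Srsf6 start site. The old clique reached 86.0 kb and listed Srsf6 with Ift52, Sgk2 and Gm11453, and Hnf4a was listed in no old clique. Of the 65 young bins 44 were old nodes, in 5 cliques, and 12 of them in the clique that lists Srsf6.

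The remaining SR genes lay between these. Srsf12 was in cliques of 17 and 4 nodes and Srsf11 in cliques of 39 and 16. Srsf4 was in cliques of 32 and 16 nodes and Srsf1, the founding member of the family, in cliques of 12 and 6. Srsf4, at a log2 value of -0.96, lies just inside the 2-fold mark, and Sf3a1, at -1.08, just past it.

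The promoters of the SR genes with the largest clique and with the lowest value are shown in the same way. Srsf5 (chr12:80945249-80945548, plus strand) has 5 matches, 2 of them ETS and 3 SP1, and Srsf6 (chr2:162931258-162931557, plus strand) has 2, both SP1. The start bin of both genes was a node at both ages.
Srsf5: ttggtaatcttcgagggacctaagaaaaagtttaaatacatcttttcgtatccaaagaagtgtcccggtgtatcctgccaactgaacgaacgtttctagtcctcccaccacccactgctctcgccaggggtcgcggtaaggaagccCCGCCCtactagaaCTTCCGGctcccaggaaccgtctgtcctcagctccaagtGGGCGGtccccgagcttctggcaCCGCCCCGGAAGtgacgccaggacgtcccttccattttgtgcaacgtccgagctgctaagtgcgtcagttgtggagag
Srsf6: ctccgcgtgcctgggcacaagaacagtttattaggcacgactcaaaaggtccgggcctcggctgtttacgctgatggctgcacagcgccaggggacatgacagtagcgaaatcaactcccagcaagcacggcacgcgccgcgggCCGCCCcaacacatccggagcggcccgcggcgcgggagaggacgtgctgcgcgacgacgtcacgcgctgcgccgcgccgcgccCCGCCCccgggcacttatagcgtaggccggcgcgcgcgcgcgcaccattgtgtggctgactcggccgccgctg

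Of the 20 hnRNP genes 19 were listed at both ages, and 16 of these had the fewer nodes in old, 2 had more and 1 as many. With old sizes scaled, 9 were smaller and 10 larger. The shares of all names that were smaller are 82.5% as listed and 40.8% with old sizes scaled. The largest cliques were those of Hnrnpab (87 and 49 nodes), Hnrnpul2 (83 and 44) and Hnrnph1 (65 and 43), whose product binds runs of G. None of these 3 was 2-fold smaller.

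Some hnRNP genes kept cliques of like size, while others, given below, did not. Hnrnpa1, which encodes an abundant exon repressor, was in cliques of 38 and 34 nodes with 32 bins in common. Hnrnpc, whose product binds runs of U, was in cliques of 37 and 33 nodes with 28 in common. Hnrnpa3 was in cliques of 36 and 29 nodes, and the old clique lay wholly within the young bins. All 3 were above 0 with old sizes scaled, from 0.54 to 0.69.

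Hnrnpk and Hnrnpa0 were listed in the same young clique of 40 nodes, from 58030001 to 58405000 on chromosome 13, and in separate old cliques. Hnrnpk, whose product binds C-rich RNA, was in an old clique of 2 nodes, a log2 value of -3.77 (-3.14 with old sizes scaled), and Hnrnpa0 in an old clique of 11. Of the 40 shared young bins 24 were old nodes, spread over 7 cliques. Both start bins were nodes at both ages.

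Hnrnpd and Hnrnpdl, neighbours on chromosome 5 whose products bind AU-rich RNA, were listed together in young only. They were listed in 1 young clique of 7 nodes and in 2 old cliques of 2 nodes each, but tied to cliques by gene span they shared an old clique too. The young clique of Hnrnpm had 49 nodes, and it listed 40 names, the class I histocompatibility gene H2-K1 among them, and was listed in no old clique. Of those 49 bins 31 were old nodes, but none within 2500 bp of Hnrnpm.

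Hnrnpul1 (48 and 14 nodes), Hnrnpu (22 and 8), Hnrnph3 (50 and 17) and Hnrnpll (53 and 21) were each at least 2-fold smaller in old. Hnrnpu encodes a nuclear scaffold protein and Hnrnpll a regulator of splicing known from lymphocytes. With old sizes scaled none of the 4 was 2-fold smaller.

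Hnrnpa2b1 and Hnrnpl had larger old cliques, but in neither was the start bin an old node. Hnrnpa2b1 was listed with 3 nodes in young and 10 in old, and all 10 old bins lay in a single young clique that does not list it. By gene span it had 17 and 10 nodes, and by its start bin 3 and 0, so its direction depends on how the gene is tied to a clique. Hnrnpl, whose product binds CA repeats, was in cliques of 6 and 10 nodes, and by its start bin in cliques of 6 and 0, so its direction turned too. Hnrnpr was in a clique of 2 nodes at both ages, Hnrnph2, on the X chromosome, in cliques of 5 and 4, and Hnrnpf in cliques of 15 and 9.

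**Figure D4:**
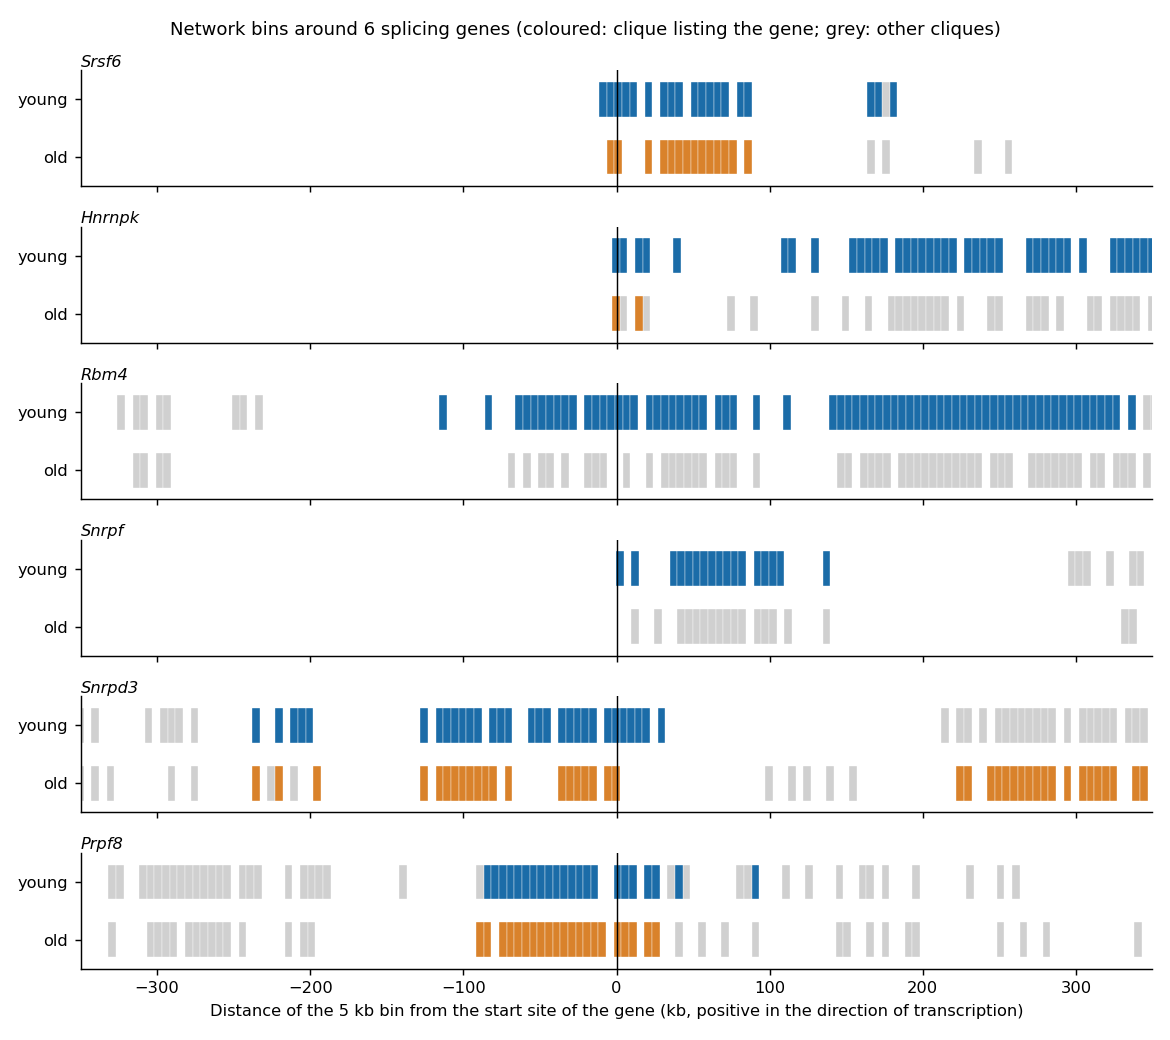
Bins that were network nodes within 350 kb of the start site of 6 splicing genes, in young and old, by distance from the start site in kb. Coloured bins belong to the clique that lists the gene and grey bins to other cliques. Rbm4 and Snrpf have no coloured bin in old, Hnrnpk keeps 2, and Prpf8 keeps nearly the same bins.

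As listed, Rbm genes made up most of the splicing genes found in young only. Of 27 Rbm names 12 were listed at both ages, 12 in young only (44.4%) and 3 in old only, whereas among the other 58 genes 5 were listed in young only. The background of all names was 29.0%. Tied to cliques by gene span, 5 Rbm genes and 5 others had a clique in young only, which is 18.5% of the Rbm genes, 8.62% of the others and 15.4% of all names with a clique, so Rbm genes were then no majority. This split by name family was noticed after the values were seen.

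Among the 85 genes, the largest young clique of a gene unlisted in old was that of Rbm4 (chromosome 19, 4784293 to 4794009), with 69 nodes. RBM4 regulates alternative splicing and translation. Its neighbours Rbm14, which encodes a paraspeckle protein, and Rbm4b were listed in the same young clique of 69 nodes and together in an old clique of 47. That old clique took up 46 of the 69 bins, but the start bin of Rbm4 was not an old node.

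Other Rbm genes listed in young only had mid-sized cliques. Rbm34 had a young clique of 43 nodes, Rbm25, whose product acts with the U1 particle, in one of 40, and Rbm38, a p53 target, in one of 28. Rbm8a, a core gene of the exon junction complex, was in one of 26. Rbm10, on the X chromosome, had 10 nodes and Rbm3os, a noncoding RNA gene, 11. Rbm42 had 5 nodes, and Rbm6, Rbm28, Rbm33 and Rbm12b2 had 2 each, with no bin of their young clique kept. The gene spans of 7 of these 12 genes touched an old clique that does not list them, of 12 nodes for Rbm8a, 10 for Rbm25, 9 for Rbm3os, 4 for Rbm4 and 2 each for Rbm10, Rbm34 and Rbm38.

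Among Rbm genes listed at both ages, Rbms2, which encodes a single-strand-binding protein, had the lowest value, with a young clique of 159 nodes and an old clique of 11 (log2 -3.74). Of the 159 young bins 102 were old nodes, in 8 cliques. Rbm48, a gene of the minor spliceosome, was in cliques of 23 and 2 nodes and Rbm18 in cliques of 27 and 4. These 3 stayed more than 2-fold smaller with old sizes scaled.

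Rbm47, whose product takes part in editing of apolipoprotein B RNA, was in cliques of 39 and 34 nodes with 33 bins in common. Rbm7, a gene of a nuclear RNA decay complex, was in cliques of 68 and 61 with 58 in common. Rbm22, whose product sits near the active site of the spliceosome, was in cliques of 54 and 37. Rbm15b and Rbm15, whose products guide RNA methylation, were in cliques of 49 and 28 nodes and of 13 and 4. Rbm39, a coactivator and splicing factor gene, was in cliques of 9 and 3, and Rbms1, at 14 and 16 nodes, had the larger clique in old. Rbm26, Rbm27 and Rbmx2 were listed in old only, in cliques of 2, 3 and 2 nodes.

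Listing followed the start bin closely. Cliques without a gene carry the label nonpromoter, so names may have been tied to cliques by promoter. The closeness may then come from how the lists were made and is no separate result. RefSeq gave a start site for 73 of the 85 genes. Of these, 67 of the 70 listed in young (95.7%) and 54 of the 60 listed in old (90.0%) had a start bin that was a node of that network, compared with 94.4% and 92.4% of all names. Of the 13 genes listed in young only that have a start site, none had an old node in the start bin. For 6 of them an old node lay within the gene or 2500 bp of it. Over all names the same counts were 132 and 1099 of 2321. Start bins were nodes at both ages for 52 of the 73 (71.2%), for 15 just in young (20.5%) and for 2 just in old (2.74%), against 61.4%, 24.8% and 8.47% of all names. For Rbm25, Prpf6, Sf3a1 and Rbmx2 the start bin in RefSeq was a node at neither age.

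Bins of cliques that list a splicing gene were kept somewhat more often than bins of all cliques that list a gene. The 75 young cliques that list a splicing gene held 2806 bins, of which 1885 (67.2%, 95% Wilson interval 65.4 to 68.9) were old nodes, beside 58.7% (58.2 to 59.1) for all young cliques that list a gene. Of the 2806 bins, 1576 were in cliques of 50 or more nodes, against 14078 of 51563 for all young cliques that list a gene. These totals are therefore not matched for clique size, and the share differed by size. In cliques of 30 to 49 nodes the shares were 64.6% (61.1 to 67.8) and 63.6% (62.8 to 64.4), and in cliques of 50 or more nodes 70.3% (68.0 to 72.5) and 67.1% (66.3 to 67.9). In cliques of 10 to 29 nodes they were 61.95% (57.0 to 66.6) and 56.4% (55.7 to 57.1). The gap was widest in cliques of 3 to 9 nodes, at 62.3% (48.8 to 74.1; 53 bins) and 42.1% (40.8 to 43.5), and in cliques of 2 nodes the order turned, at 16.7% (4.70 to 44.8; 12 bins) and 25.5%. These intervals cover counting error only and treat neighbouring bins as independent, which they are not.

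Of the 79 genes listed in young, 54 had the bins of their young clique in 2 or more old cliques (68.4%, beside 58.0% of all names listed in young), 19 in 1 (24.1%, beside 33.3%), and 6 had none kept (7.59%, beside 8.65%). Of the 62 genes listed at both ages, 49 were listed in the old clique that took up most of the kept bins, or as many as any other (79.0%, beside 82.1% of all names). The Jaccard index, the bins common to both cliques over the bins in either, had a median of 0.373, beside 0.429 over all names, and was at least 0.5 for 24 genes (38.7%, beside 40.9%). Rbm7, Rbm47, Hnrnpa3, Hnrnpa1 and Prpf8 had the highest, from 0.792 to 0.825. In the other direction, the old cliques that list a splicing gene held 1534 bins. Of these, 87.7% (86.0 to 89.3) were young nodes, beside 82.9% for all old cliques that list a gene. These totals are not matched for clique size. The shares were 85.4% and 88.3% in cliques of 50 or more nodes and 92.3% and 89.9% in those of 30 to 49. At 10 to 29 nodes they were 87.5% and 87.0%, at 3 to 9 nodes 82.1% and 73.7%, and at 2 nodes 59.1% and 53.4%.

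**Figure D5:**
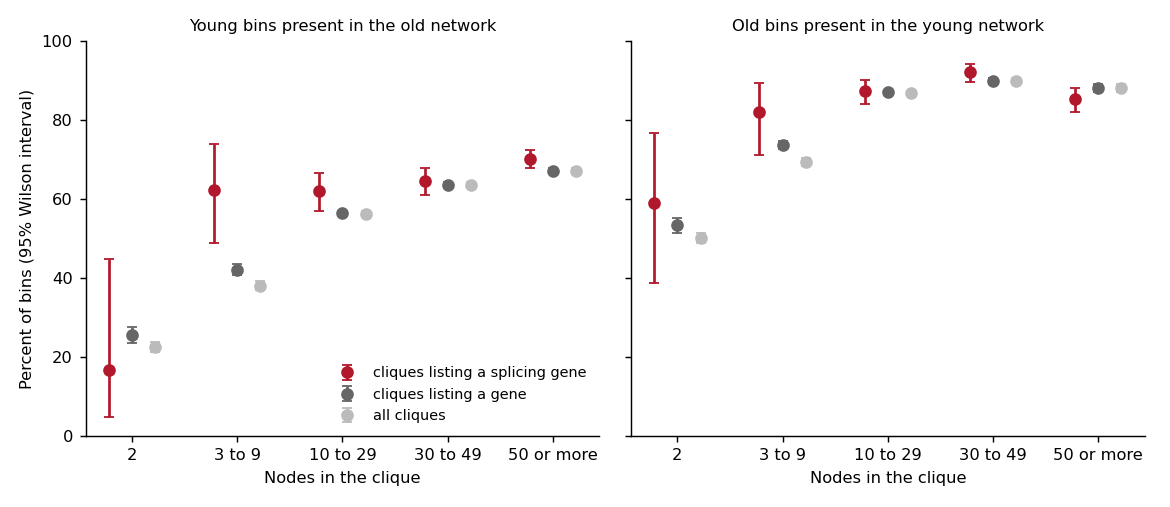
Percent of bins that were also nodes at the other age, by the number of nodes in the clique, for cliques that list a splicing gene (red), cliques that list any gene (dark grey) and all cliques (light grey), with 95% Wilson intervals. In cliques of 30 to 49 young nodes red and dark grey are at 64.6% and 63.6%, and the widest red intervals are those of the cliques of 2 nodes.

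Cliques that list splicing genes were of usual extent and listed several other genes. At the median over genes, the clique of a splicing gene spanned 295 kb in young and 200 kb in old, against 300 kb and 200 kb over all names. It listed a median of 10 names in young and 5.5 in old, beside 8 and 5 over all names. These medians are taken over names and not over cliques, so over all names a clique that lists many names weighs more. The young clique of Sf3a2 listed 87 names, whereas Rbms1 was the only name of its clique at both ages. The 79 genes listed in young lay in 75 cliques and the 68 listed in old in 67, so few members share a value.

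The promoters of splicing genes held more CpG than those of all genes and were nearer to those of listed protein-coding genes. A 300-base promoter was found in RefSeq for 73 of the genes and for 27025 genes in all, the first start site being used. The median number of CpG dinucleotides was 24 in splicing genes, 20 in listed protein-coding genes, of which 7689 had a promoter, and 7 over all genes. The median GC share was 59.0%, 60.3% and 52.7%. An ETS core (CCGGAAG) was present on either strand in 19 of the 73 (26.0%), beside 17.5% of listed protein-coding genes and 9.12% of all.

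Other motifs were searched in the same way. A YY1 core (AAGATGGC) was in 8.22% of splicing genes and 4.45% of listed protein-coding genes, and an SP1 box (GGGCGG) in 60.3% and 61.9%. An E-box (CACGTG) was in 12.3% and 10.01%, and a TATA box (TATAAA) in 9.59% and 7.80%. The NRF1 palindrome was in none of the 73 and in 2.03% of listed protein-coding genes. The 2 ETS matches of Snrpe overlap, as the core and its reverse complement share bases there, and in Srsf5 an SP1 and an ETS match share a base. A match describes the letters and not the binding of a factor.

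Other genes of the pathway, taken from 5 lists of 161 genes, are given for comparison. Of these, 107 were listed at either age, 78 of them at both, 22 just in young and 7 just in old. The shares were 72.9%, 20.6% and 6.54%, beside 60.7%, 29.0% and 10.3% of all names. Of the 78, 60 had the smaller clique in old, 13 the larger and 5 an equal one. That is 76.9% smaller and 16.7% larger, beside 82.5% and 12.5% of all names. The median log2 value was -0.58, beside -0.63 for all names, and 27 were at least 2-fold smaller (34.6%, beside 34.9% of all names). With old sizes scaled, 28 were smaller and 50 larger (35.9% and 64.1%), beside 40.8% and 59.2% of all names. Counts of the 5 lists below are to be read beside these same shares of all names.

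Among the particle proteins outside the name families, 17 of 19 genes listed at both ages were smaller in old, 1 was larger and 1 equal, against 7 smaller and 12 larger with old sizes scaled. Snrnp70, the gene of the U1 protein of that name, was listed in old only, in a clique of 74 nodes, and had no young node in its gene span. Luc7l3, a U1-associated gene, was listed in young only with 76 nodes. Snrnp27 was in cliques of 63 and 3 nodes, the young one being that of Snrpg, so the 2 genes share a young value. Ddx23, an RNA helicase gene, was in cliques of 24 and 25. Sugp1 was listed in young only with 52 nodes, although its gene span touched an old clique of 48, and Lsm11 in young only with 15. Snrnp25 and Eftud2 were listed in old only, with 8 and 5 nodes, although their gene spans touched young cliques of 5 and 32.

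In the list of activation, second-step and exon junction factors, 13 of 18 genes listed at both ages were smaller in old and 4 larger, against 6 and 12 with old sizes scaled. Rnps1, an exon junction gene, was in cliques of 109 and 5 nodes, and Dhx8, a helicase gene that releases spliced RNA, in cliques of 111 and 17. Magoh, the partner of Rbm8a in the exon junction complex, was in cliques of 20 and 38. Dhx38 was in cliques of 41 and 9 nodes and Acin1 in cliques of 3 and 6. Cwc25 was listed in young only with 25 nodes, its gene span touching an old clique of 10, and Ddx41 and Magohb in old only with 12 and 3.

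Among SR-related genes and their kinases, 10 of 14 listed at both ages were smaller in old, 2 larger and 2 equal, against 4 smaller and 10 larger with old sizes scaled. Son, the gene of a nuclear speckle scaffold, was listed in young only with 38 nodes. Rsrp1 was in cliques of 80 and 3 nodes, Ddx5, a helicase gene, in cliques of 88 and 23, and Scaf4 in cliques of 14 and 3. Bclaf1 and Scaf1 were larger in old, at 19 and 36 and at 72 and 74 nodes.

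Of the sequence-specific regulators, 13 of 17 listed at both ages were smaller in old and 4 larger, against 7 and 10 with old sizes scaled. Khsrp, whose product binds G-rich and AU-rich RNA, was in cliques of 30 and 116 nodes, the largest gain of the list. Ewsr1 was in cliques of 55 and 3 nodes and Khdrbs3 in cliques of 21 and 2. Tardbp, the gene of TDP-43, was in cliques of 18 and 26, Syncrip in cliques of 3 and 8 and Elavl1 in cliques of 28 and 30. Raver1 and Sfpq were listed in young only, with 14 and 4 nodes, and the gene span of Raver1 touched an old clique of 27.

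The list of genes that assemble the particles had 7 of 10 smaller in old and 2 larger, against 4 and 6 with old sizes scaled. Clns1a, which feeds Sm proteins to the assembly machinery, was listed in young only with 46 nodes, its gene span touching an old clique of 3, and Strap was in cliques of 27 and 2. Gemin7 was in cliques of 98 and 121 nodes, those of Snrpd2, and Coil, the gene of the Cajal body protein coilin, in cliques of 12 and 20. Gemin4 and Gemin8 were listed in young only with 2 nodes each, Gemin5 and Prmt5 in old only with 4 and 2. The gene span of Gemin5 touched cliques of 34 and 29 nodes, so its direction depends on how the gene is tied to a clique.

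RefSeq holds 31 further protein-coding genes whose symbols meet the name rule and that no clique analysed here lists. For 21 of them no bin within the gene or 2500 bp of it was a node at either age. The SR gene Srsf3 was the clearest exception: its gene span reached a young clique of 60 nodes and an old one of 56, but its start bin was a node at neither age. Srsf7 likewise reached cliques of 53 and 27 nodes. Srsf2 had no node at either age.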

How the data were processed

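The deposited tables were 4, a node list and a clique list for each of 2 ages. Per the file headers, the clique lists give other values than read counts: the number of nodes per clique, the genes and the node names. Per the submitters' processing notes, Bowtie2 and HiC-Pro were used with mm10 and GRCm38. For pooling of libraries, contact calls, clique method and gene assignment, the authors' steps were not given in these sources. Depth is unknown, so no interval for a clique size is given. In each table every node was a 5 kb bin in exactly 1 clique.

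Names were split on semicolons and the largest clique per name and age was kept. A pseudocount of 1 node was used, and a factor of 2 counts as called. Nodes of both ages were matched as the same bin. All 85 splicing genes matched RefSeq (GRCm38.p6) by symbol, and start sites come from its promoter table. Python 3.11.15, pandas 2.3.3 and scipy 1.17.1 were used, and the functions were tested on simulated networks. No test was run. The members and lists were chosen with earlier results of these data known. Named are the members and, per list of other splicing genes, the 4 largest losses and gains. Some genes are not reported here by name, though counts include them. Genes named as sharing a clique, Srsf2, Srsf3 and Srsf7 were chosen after their values were seen. Alternatives covered scaling, pseudocount, small cliques, gene span, start bin, smallest clique and member choice.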

Additional observations from a re-analysis of the deposited data

How the results depend on the processing

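No paired analysis was possible because each age is 1 pooled network. Of the 85 genes, 72 were smaller and 11 larger in old, with a median log2 value of -1.08. Of all names, 79.1% were smaller and 17.9% larger, with a median of -1.0. Dividing by the mean of the age gave 52 smaller and 33 larger, and a median of -0.25. Dividing by the median of names listed at both ages gave 47, 38 and -0.0902. Scaling old sizes, chosen after seeing the data, gave 47, 38 and -0.25. In these 3 settings 59.9%, 53.8% and 53.8% of all names were smaller, with medians of -0.25, -0.0752 and -0.18, so the members are near the background. A median over all 85 counts unlisted genes as 0. Genes larger in old were 5 among those listed at both ages, 5 by start bin and 7 without Rbm names. Genes listed in young only numbered 17, against 10 by gene span and 5 without Rbm names. Genes listed in old only numbered 6, against 3 with cliques of at least 3 nodes, 2 by start bin and 3 without Rbm names. Restricting to genes listed at both ages leaves 0 listed at 1 age by construction. Of the 107 other splicing genes 82 were smaller and 20 larger, against 50 larger with sizes divided by the mean, 50 smaller and 57 larger with those divided by the median or with old sizes scaled, and 13 larger among those listed at both ages. Young bins kept were 67.2%, or 86.8% counting neighbouring bins. Members sharing an old clique were 2, or 4 by gene span, with Hnrnpd and Hnrnpdl added. By how genes were tied to cliques, directions turned for Hnrnpa2b1 (-0.71 by gene span, -2.00 by start bin), Prpf39 (-0.66 by gene span) and Hnrnpl (0.65 as listed, -2.81 by start bin), and scaling changed the sign of 20 genes (mean) or 25 (median, or old sizes scaled). The cause was not tested. A pseudocount of 5, the smallest clique, protein-coding names only and 1 member per pair of cliques left the counts of the 85 genes within 1.5 times, and the first 2 also those of the other splicing genes. Unknown depth limits each value.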
